A study of Danio rerio with 16 samples.

Results

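Zebrafish embryos homozygous for the rad21nz171 allele were compared with wild-type embryos at 48 hours post-fertilization (hpf), the later of the study's 2 stages. The 4 arrays of rad21 mutants and the 4 arrays of wild types labelled as 48 hpf were chosen by their sample titles, which gives 8 of the 16 arrays of the series. The other 8 arrays hold both genotypes at 24 hpf and enter here through the shared estimate of the spread and through the test of the difference between the stages. Each array carries RNA from a separate pool of 50 whole embryos, raised in embryo medium at 28 °C and dechorionated before collection, and each pool counts as 1 biological replicate in the labels. Every group therefore averages over all tissues of 50 embryos, and the wild types carry no mutation, transgene or drug that the mutants lack. The p-values measure the spread between these pools, and the number of arrays, 4 per group, limits their precision. RNA was hybridized to the Affymetrix zebrafish genome array, a one-colour microarray on which a probe set, a group of short oligonucleotides, reads a transcript.

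Cohesin is a ring of proteins built from the kleisin Rad21 together with Smc1, Smc3 and a Stag protein. Cohesin holds sister chromatids together from DNA replication until mitosis, takes part in the repair of broken DNA and folds the genome into loops, through which it bears on the contact between enhancers and promoters. The nz171 allele is a nonsense mutation of rad21a, and a maternal supply of the protein carries homozygous embryos through the first cell divisions. The study used these embryos to ask which genes depend on Rad21 during development.

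Values below are log2 intensities, and a change is the mutant mean minus the wild-type mean at 48 hpf on that scale, with the standard error of the limma fit after ±. A group mean carries its standard deviation after ±, with n = 4. A gene was called higher or lower where its limma p-value, adjusted by the Benjamini-Hochberg method over all 15502 tested probe sets, was under 0.05, and only for called genes are the words rose and fell used. Arrays named as left out were left out one at a time. The array holds probe sets for 5 sequences foreign to zebrafish, which gave 2.77 to 7.22, with a median of 4.79, so that values near or under this median lie close to background and changes against them are compressed.

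The arrays of a group resembled each other closely. Within the wild types, replicate 3 had the lowest mean correlation with the rest of its group (0.986), and within the mutants replicate 4 (0.983). For acta1, a muscle actin with manufacturer's controls at both ends, the 3′ minus 5′ difference was 2.56, 2.68, 2.81 and 2.41 in the wild types and 4.08, 3.39, 3.40 and 3.39 in the mutants, so the groups did not overlap (exact permutation test, two-sided, p = 0.0286, the smallest this design allows, 0.0571 after adjustment over the 2 controls). The same difference for gapdh was higher in the mutants by 0.02 (exact permutation p = 0.514). Of 28 genes that mark the tissues of an embryo at this stage, 20 had a probe set, and 18 of these read above the median of the foreign sequences in both groups. The exceptions were the liver gene fabp10a and the pigment gene tyr.

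At 48 hpf, 15.6% of the 15502 probe sets were called in either direction: 1358 (8.76%) were higher in the mutants and 1055 (6.81%) were lower. Called or not, 2762 of the 15502 probe sets had no overlap between the mutant and the wild-type arrays. Most changes were small. The median change of the called probe sets was 0.52 upward and -0.63 downward, 123 rose and 218 fell at least 2-fold, and 8 rose and 31 fell at least 4-fold. The split between directions depended on how the arrays were scaled, since 1077 rose and 1282 fell after cyclic loess and 1134 rose and 1170 fell after each array was centred on its median. The median change over all probe sets was 0.03 as deposited and -0.01 after cyclic loess. Among the 8793 genes with a symbol, 849 rose (9.66%) and 719 fell (8.18%), and these 2 shares are the background against which the gene groups below are read. Some genes belong to several of these groups, so the counts of the groups are not independent. The gene lists were chosen with earlier results of these data known. Their counts beside the background are therefore a description, and no list was tested as a set.

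**Figure D1:**
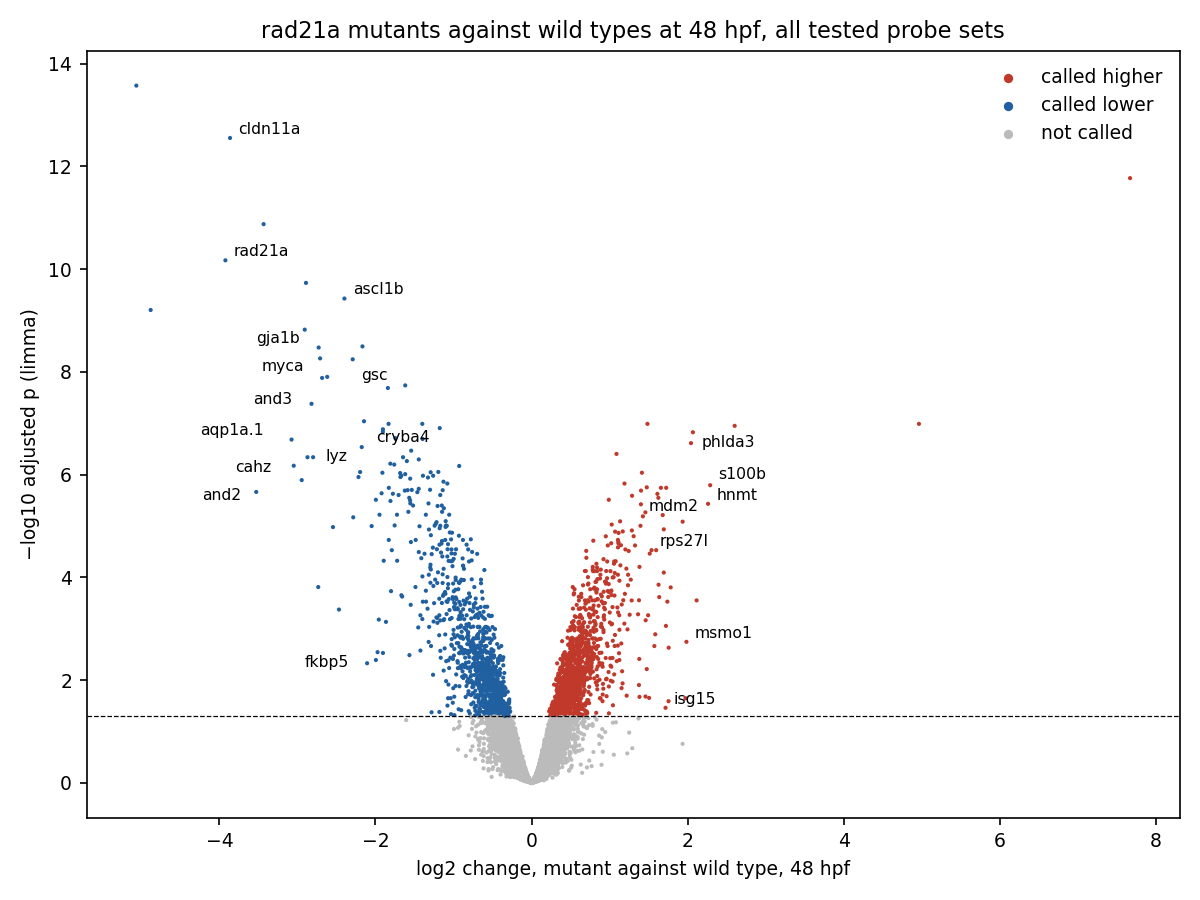
Each point is 1 of the 15502 tested probe sets, with the log2 change between mutants and wild types at 48 hpf on the horizontal axis and -log10 of the limma adjusted p on the vertical axis. Red points were called higher, blue points lower and grey points neither, and the dashed line marks an adjusted p of 0.05. The labelled decreases reach -3.92 (rad21a), and the labelled increases reach 2.29 (s100b).

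The rad21a transcript itself was far lower in the mutants. Its probe set read 10.48, 10.26, 10.06 and 10.15 in the wild-type arrays and 6.57, 6.72, 6.05 and 5.92 in the mutant arrays, so every mutant array lay below every wild-type array. The change of -3.92 ± 0.17 is a 15.2-fold drop (adjusted p = 6.74e-11), and at 24 hpf it was -3.58 ± 0.17. No other measured cohesin subunit was called. The structural subunits smc1al and smc3 changed by -0.31 ± 0.11 (adjusted p = 0.0679) and -0.38 ± 0.14 (adjusted p = 0.0824), and the other 4 probe sets of smc1al, none of them called, by -0.19 to 0.15. The gene smc1al was called without wild-type array 3 and after each other scaling of the arrays, and smc3 without mutant array 3. The Stag subunits stag1b and stag2a changed by 0.08 and 0.18, and rad21l1, the meiotic kleisin of mammals, read 3.12 and 3.17, at background in both groups. Among 6 measured loaders and regulators, esco2, the acetyltransferase that locks cohesin onto replicated DNA, fell by 0.92 ± 0.21 (adjusted p = 0.00565). The cohesin-associated pds5b changed by -0.57 ± 0.16 and was not called without wild-type array 1 or 2. The number of regulators higher was 1 without wild-type array 3 or 4 or mutant array 4.

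The largest changes included transcripts that rose or fell by an order of magnitude. The naming rule for the largest changes kept only genes whose arrays did not overlap between the groups. Separation of the groups is therefore no further evidence for these genes. By this rule, the 30 largest decreases ran from rad21a to igfbp1a (-1.90). The 30 largest increases ran from s100b (2.29) to tgm1l4 (1.24). The largest decrease after rad21a was cldn11a, a claudin of tight junctions that in mammals seals myelin and the stria of the inner ear. It read 7.74, 7.34, 7.20 and 7.57 in the wild-type arrays and 3.65, 3.67, 3.52 and 3.57 in the mutant arrays, a 14.6-fold difference (adjusted p = 2.80e-13), and the mutant values lie below the background median. The increases were smaller in size. The calcium-binding protein gene s100b rose by 2.29 ± 0.22 and hnmt, which encodes the enzyme that methylates histamine, by 2.26 ± 0.23, and 11 of the 30 started from a wild-type mean below the background median. Several probe sets with no symbol, chosen after their values were seen, changed more than any named gene: one read 4.37 to 5.26 in the wild types and 12.02 to 12.76 in the mutants, a change of 7.67 ± 0.25 at 48 hpf and of 7.86 ± 0.25 at 24 hpf. Another read 8.70 to 9.35 in the wild types and 3.65 to 4.01 in the mutants, a change of -5.06 ± 0.12, against -0.05 ± 0.12 at 24 hpf.

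**Figure D2:**
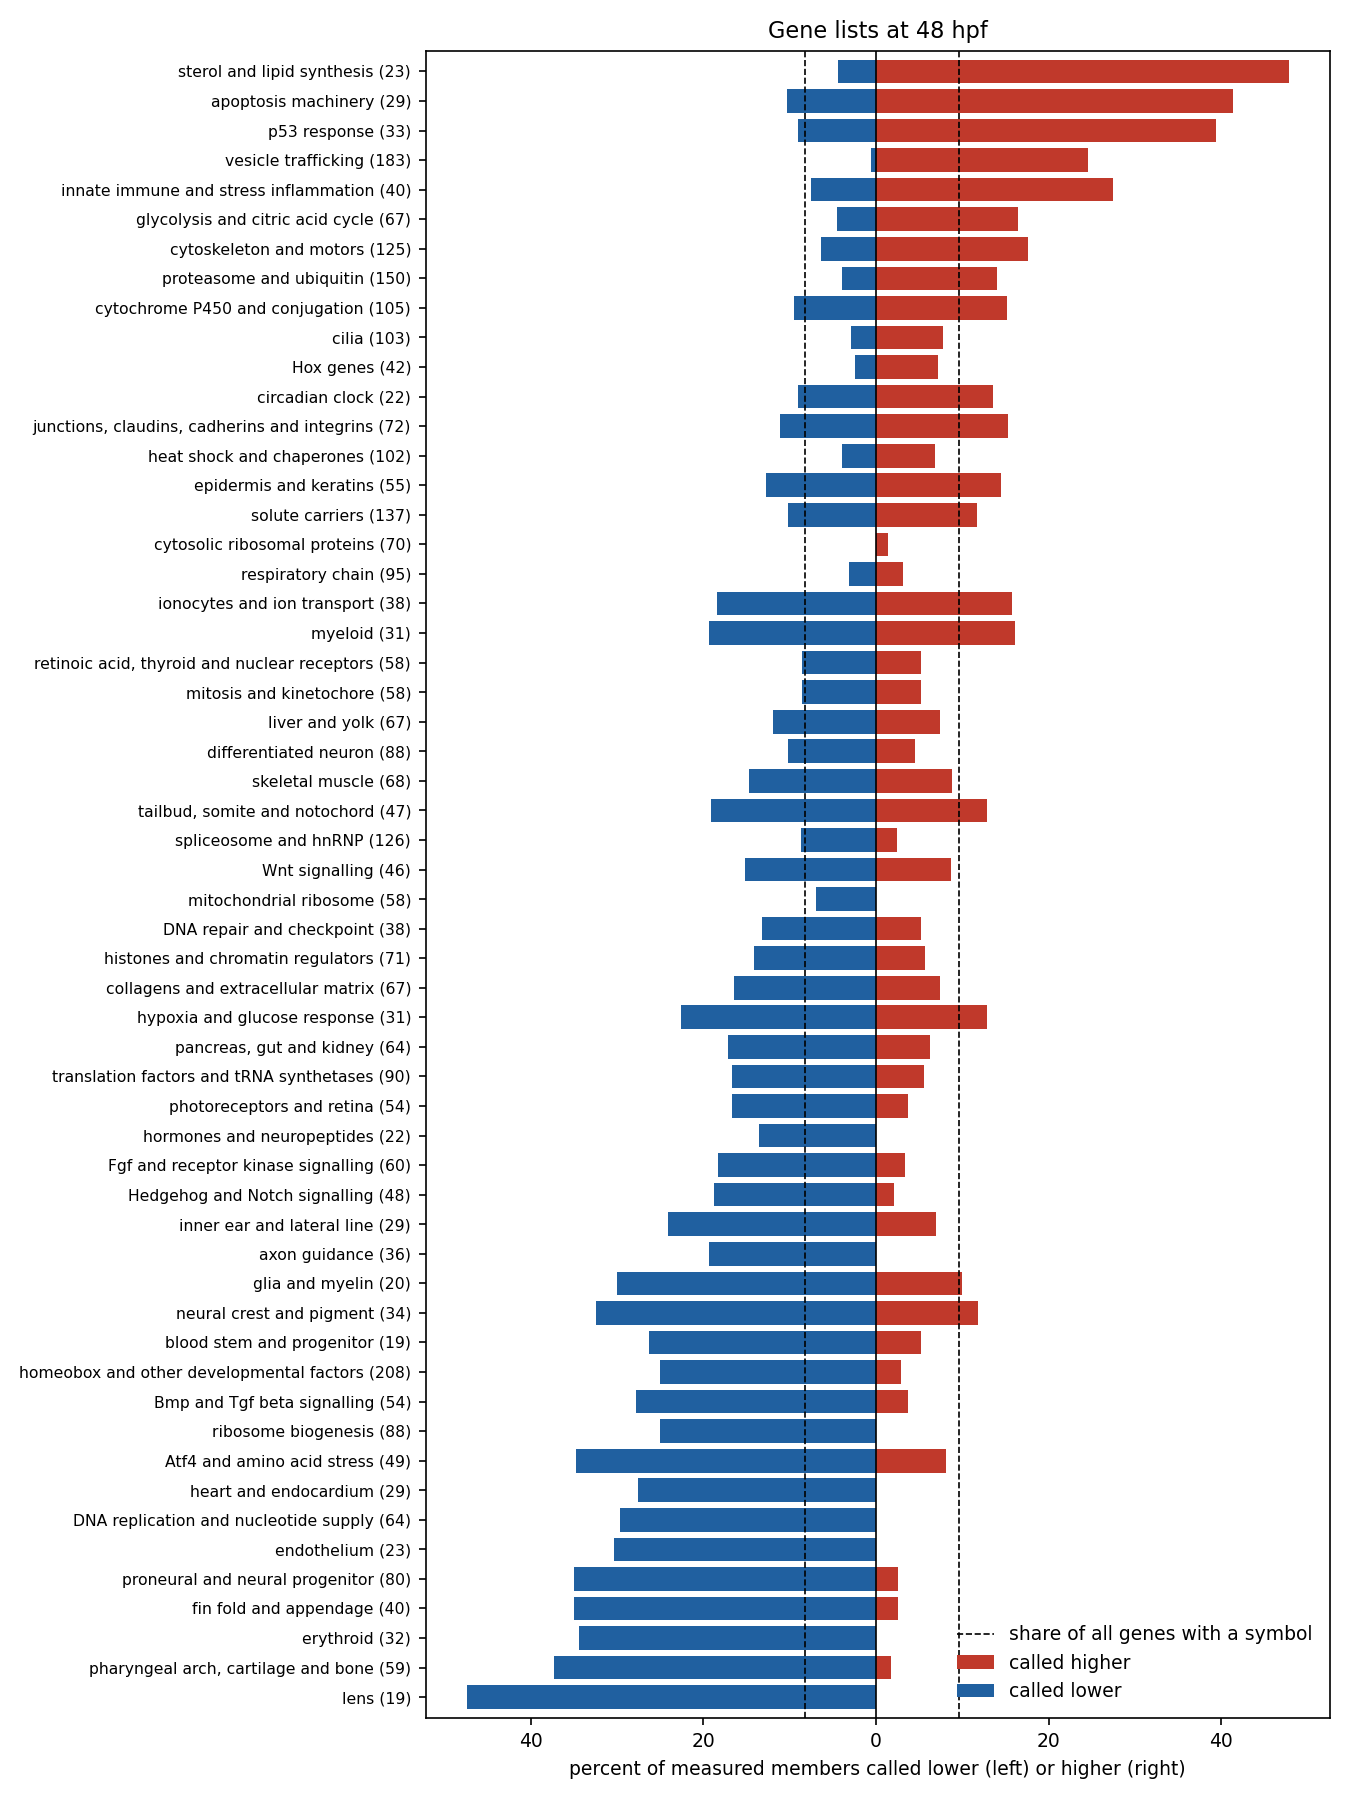
Each row is a gene list with at least 19 measured genes, their number in brackets. Red bars to the right give the percentage of members called higher and blue bars to the left the percentage called lower at 48 hpf, and dashed lines mark the shares of all genes with a symbol (9.66% higher and 8.18% lower). Sterol synthesis, apoptosis and the p53 response stand at the top, and lens, pharyngeal arch and erythroid genes at the bottom.

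More genes of the p53 response were called higher than lower. p53 is the transcription factor that answers DNA damage and other stress by halting the cell cycle or by killing the cell. Of 33 measured genes of its response, 13 rose (39.4%) and 3 fell (9.09%), with a median change of 0.32 against 0.03 over all genes with a symbol. The other 17 were not called. Those that fell were plk3, mdm4 and gadd45ab, named here after their values were seen. The pleckstrin-domain gene phlda3, which restrains Akt signalling, read 5.72, 5.73, 5.50 and 5.93 in the wild-type arrays and 7.63, 7.39, 7.89 and 8.14 in the mutant arrays. The groups were well apart, by 4.12-fold (adjusted p = 2.43e-07). The ubiquitin ligase gene mdm2, which limits p53 itself, read 8.09, 7.93, 8.19 and 8.0 in the wild-type arrays and 9.28, 9.46, 9.82 and 10.29 in the mutant arrays, and rose by 1.66 ± 0.16 (adjusted p = 1.80e-06). Mutant array 4 was the highest array for both. The killer gene bbc3 (puma) read 4.66, 4.59, 4.57 and 4.40 in the wild-type arrays and 5.78, 5.83, 6.03 and 6.49 in the mutant arrays, that is, from below the background median in all wild types to above it in all mutants, with a change of 1.48 ± 0.14 (adjusted p = 1.76e-06). The ribosomal protein-like gene rps27l rose by 1.54 ± 0.19, pmaip1 (noxa) by 0.94 ± 0.13 and the initiator caspase gene casp8 by 0.97 ± 0.13. A second probe set of pmaip1, close to background, changed by 0.29 (adjusted p = 0.0577).

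Genes of the apoptosis machinery were called higher more often than lower, although the list as a whole hardly shifted. Its median change was 0.05, against 0.03 over all genes with a symbol, and 14 members were not called. Of 29 apoptosis genes, 12 rose (41.4%) and 3 fell, and of those that rose, bbc3, casp8, baxa and tnfrsf1a also belong to the p53 list. The pore-forming gene baxa rose by 0.90 ± 0.16 (adjusted p = 0.000928). The BH3-only genes bada and bik, whose products bind the guardians of the mitochondrial membrane, rose by 1.02 ± 0.15 and 0.90 ± 0.14. The caspase gene caspb, which acts in pyroptosis, rose by 0.95 ± 0.11, while its second probe set, near background, changed by 0.00. Leaving out single arrays changed the number of apoptosis genes lower to 1 without wild-type array 2 or mutant array 2 or 3.

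The Myc genes, which encode transcription factors that drive growth and ribosome production, were lower as a family: 6 of 9 measured genes of the network fell and 1 rose. The first of them, myca, read 6.75, 6.48, 6.71 and 7.05 in the wild-type arrays and 4.25, 4.14, 3.98 and 3.78 in the mutant arrays, and no mutant array came within 2 log2 units of a wild-type array. It fell by 2.71 ± 0.16 (adjusted p = 5.45e-09), to below the background median. Its relatives fell less: mycn by 0.98 ± 0.12, mych by 0.88 ± 0.18, myclb by 0.80 ± 0.14, mycla by 0.80 ± 0.18 and mycb by 0.60 ± 0.14.

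Genes of growth and of DNA replication followed in the same direction. Of 88 genes of ribosome biogenesis, the nucleolar assembly line that builds ribosomes, 22 fell (25%) and 0 rose, with a median of -0.35. The box C/D proteins nop58 and fbl (fibrillarin), which guide the methylation of ribosomal RNA, fell by 0.76 ± 0.09 and 0.58 ± 0.10. The processome genes wdr43, rrp9 and mphosph10 fell by 0.68 ± 0.12, 0.81 ± 0.15 and 0.78 ± 0.15. The finished product behaved otherwise, since of 70 genes for proteins of the cytosolic ribosome only rps27l was called, and their median change was 0.00, with a sign that turned under other scalings. After cyclic loess 4 of them were called lower, and the number lower was 1 without mutant array 2 and 2 without mutant array 1. The number of biogenesis genes lower was 12 without mutant array 4. Of 90 translation factors and tRNA synthetases, 15 fell (16.7%) and 5 rose, among them aars1, the alanyl-tRNA synthetase (-0.54), eif3i (-0.43) and eif3ba (-0.36), which are parts of initiation factor 3, and the poly(A)-binding pabpc1b (-0.60). The number lower was 8 without wild-type array 4 and 9 without wild-type array 2 or mutant array 2, and the number higher was 2 without wild-type array 2, 3 or 4 or mutant array 2, 3 or 4 and 3 without wild-type array 1 or mutant array 1.

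Of 64 genes of DNA replication and nucleotide supply, 19 fell (29.7%) and 0 rose, with a median of -0.42. The helicase subunit mcm5 read 9.21, 9.44, 9.32 and 9.38 in the wild-type arrays and 8.60, 8.69, 8.61 and 7.81 in the mutant arrays. The groups did not overlap, and mutant array 4 was the lowest by 0.79. The fall was 0.91 ± 0.15 (adjusted p = 0.000473), and those of mcm4 and mcm3 were 0.99 ± 0.20 and 0.93 ± 0.19. The polymerase delta subunit pold2 fell by 0.95 ± 0.17, the histone mRNA-binding slbp by 0.89 ± 0.17 and uhrf1, which carries DNA methylation across replication, by 1.02 ± 0.17. How many members passed depended on single arrays, being 10 without wild-type array 2 or mutant array 4, 12 without mutant array 3 and 35 without mutant array 1, and the number higher was 1 without wild-type array 4 or mutant array 4. Mitosis did not share this pattern: of 58 genes of mitosis and the kinetochore 3 rose and 5 fell, shares near or under the background. The centriole kinase plk4 fell by 0.67 ± 0.12 and the kinetochore gene ndc80 by 0.65 ± 0.13, while the midzone gene prc1b rose by 0.58 ± 0.13. The mitotic kinesin kif20a rose by 1.64 ± 0.25 on 1 probe set and changed by 0.11 on another. The number of mitosis genes lower was 2 without wild-type array 1 or mutant array 4 and 3 without wild-type array 3, and the number higher 6 without mutant array 4.

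Repair and chromatin genes held both directions. Of 38 genes of repair and checkpoints, 5 fell and 2 rose, with parp2, a poly(ADP-ribose) polymerase, lower by -0.79 and h2ax, the histone variant phosphorylated at breaks, higher by 0.50. Of 71 histones and chromatin regulators, 10 fell (14.1%) and 4 rose. The arginine methyltransferase prmt5 fell by 0.62 ± 0.10, the Polycomb gene cbx2 by 0.54 ± 0.13 and hmgb1b, which encodes an abundant DNA-bending protein, by 0.45 ± 0.10. The histone gene hist2h2l rose by 1.33 ± 0.16, with 0.34 on a second probe set near background. The number of repair genes lower was 2 without wild-type array 1 or 2 or mutant array 3 or 4 and 3 without wild-type array 4, the number higher 1 without wild-type array 1, 2 or 3 or mutant array 1, 2 or 3, and the number of chromatin genes lower 4 without wild-type array 1 or 2 and 6 without mutant array 4.

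Genes of red blood cells were lower where they were called. These are whole embryos, so fewer cells of a type and less RNA per cell cannot be told apart, here and in the tissues that follow. Of 32 erythroid genes, 11 fell (34.4%) and 0 rose. The carbonic anhydrase gene of red cells, cahz, read 8.53, 8.23, 8.57 and 8.88 in the wild-type arrays and 6.43, 5.81, 4.85 and 4.92 in the mutant arrays. The groups lie 1.79 apart at their nearest arrays, and mutant arrays 3 and 4 stand close to background. The fall of 3.05 ± 0.26 is 8.27-fold (adjusted p = 6.70e-07). The anion exchanger of the red cell membrane, slc4a1a (band 3), fell by 2.73 ± 0.40, and epb41b, which anchors the membrane skeleton, by 1.70 ± 0.17. The carbonic anhydrase gene ca2 fell by 1.83 ± 0.13, with -0.55 on its second probe set. The number of erythroid genes higher was 2 without mutant array 4. Among 19 genes of blood stem and progenitor cells, 5 fell and 1 rose. The stem cell factor myb fell by 0.77 ± 0.15, cebpa, a factor of the myeloid lineage, by 0.75 ± 0.17, and the chemokine receptor cxcr4b by 1.09 ± 0.17. The 1 member higher, meis1b, changed by 0.34 ± 0.10 and was not called without wild-type array 2, 3 or 4 or mutant array 1 or 2.

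Myeloid genes were called in both directions. Of 31 myeloid genes 6 fell and 5 rose. The lysozyme gene lyz, which marks early myeloid cells, read 10.08, 9.86, 10.06 and 10.32 in the wild-type arrays and 7.78, 7.30, 7.17 and 6.87 in the mutant arrays. No array of either group came near the other, and the fall of 2.80 ± 0.23 is 6.96-fold (adjusted p = 4.58e-07). The myeloperoxidase gene mpx, a neutrophil marker, fell by 0.91 ± 0.14, and on its other probe sets by 1.83 on 1, while 2 near background were not called (0.21 and -0.09). The carboxypeptidase gene cpa5, expressed in mast cells, fell by 1.54 ± 0.13, and the collagenase gene mmp13a by 1.29 ± 0.25, although mutant array 4 read 6.75, within the wild-type range. The lysosomal protease gene ctsc rose by 1.05 ± 0.15 and the galectin gene lgals2b by 1.15 ± 0.22.

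Vessel and heart genes were lower where they were called. Of 23 endothelial genes 7 fell (30.4%) and 0 rose, with a median of -0.10. Among those that fell, aqp1a.1 and aqp8a.1 also count in the erythroid and the ion transport lists. The same holds for prox1a in the lens and pancreas lists and for vegfaa in the Fgf, Atf4 and hypoxia lists. The water channels aqp1a.1 and aqp8a.1, which also occur in other tissues, fell by 3.08 ± 0.24 and 1.79 ± 0.22. The sphingosine phosphate receptor s1pr1 fell by 1.78 ± 0.17, plvapb, a component of fenestrated vessels, by 1.83 ± 0.17, and vegfaa, the growth factor of vessels, by 0.56 ± 0.10. Of 29 genes of heart and endocardium 8 fell (27.6%) and 0 rose. The flow-responsive endocardial factor klf2a read 6.33, 6.03, 5.78 and 6.32 in the wild-type arrays and 4.59, 4.33, 4.11 and 4.45 in the mutant arrays, with all mutants below the background median, and fell by 1.75 ± 0.14 (adjusted p = 1.94e-07). Its paralog klf2b fell by 1.01 ± 0.13. The cardiac factor hand2 fell by 0.78 ± 0.15, the cardiac troponin gene tnnc1a by 0.82 ± 0.16 and the actinin gene actn2b by 0.88 ± 0.14.

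In the eye, genes of the lens fell. Of 19 lens genes 9 fell (47.4%) and 0 rose, with a median of -0.47. The crystallin gene cryba4 read 11.04, 11.29, 11.45 and 11.02 in the wild-type arrays and 8.90, 9.39, 8.75 and 9.18 in the mutant arrays. The gap between the groups exceeds the spread within either, and the fall of 2.15 ± 0.16 is 4.43-fold (adjusted p = 9.13e-08). The crystallins crygmxl2, crybb1 and crygm2c fell by 1.91 ± 0.14, 1.80 ± 0.27 and 1.05 ± 0.17, and bfsp2, which encodes a filament protein of lens fibres, by 1.21 ± 0.15. With probe sets whose mean over the 16 arrays was under 5 left out, 4 lens genes were called lower. That filter also removes transcripts that are low in the mutants or at 24 hpf, such as bfsp2.

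Of 54 genes of photoreceptors and retina 9 fell (16.7%) and 2 rose. The bipolar cell factor vsx1 fell by 1.05 ± 0.11, the amacrine and ganglion cell factor barhl2 by 1.25 ± 0.20, the photoreceptor factor neurod1 by 1.00 ± 0.14, the rod transducin subunit gngt1 by 0.95 ± 0.15 and exorh, the opsin of the pineal organ, by 0.97 ± 0.12. The retinoid-binding gene rlbp1a of pigment epithelium and Müller glia rose by 0.98 ± 0.14. With probe sets of a mean under 5 left out, 2 of the list were lower, and barhl2 was among those the filter removed. The number higher was 4 without mutant array 2.

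**Figure D3:**
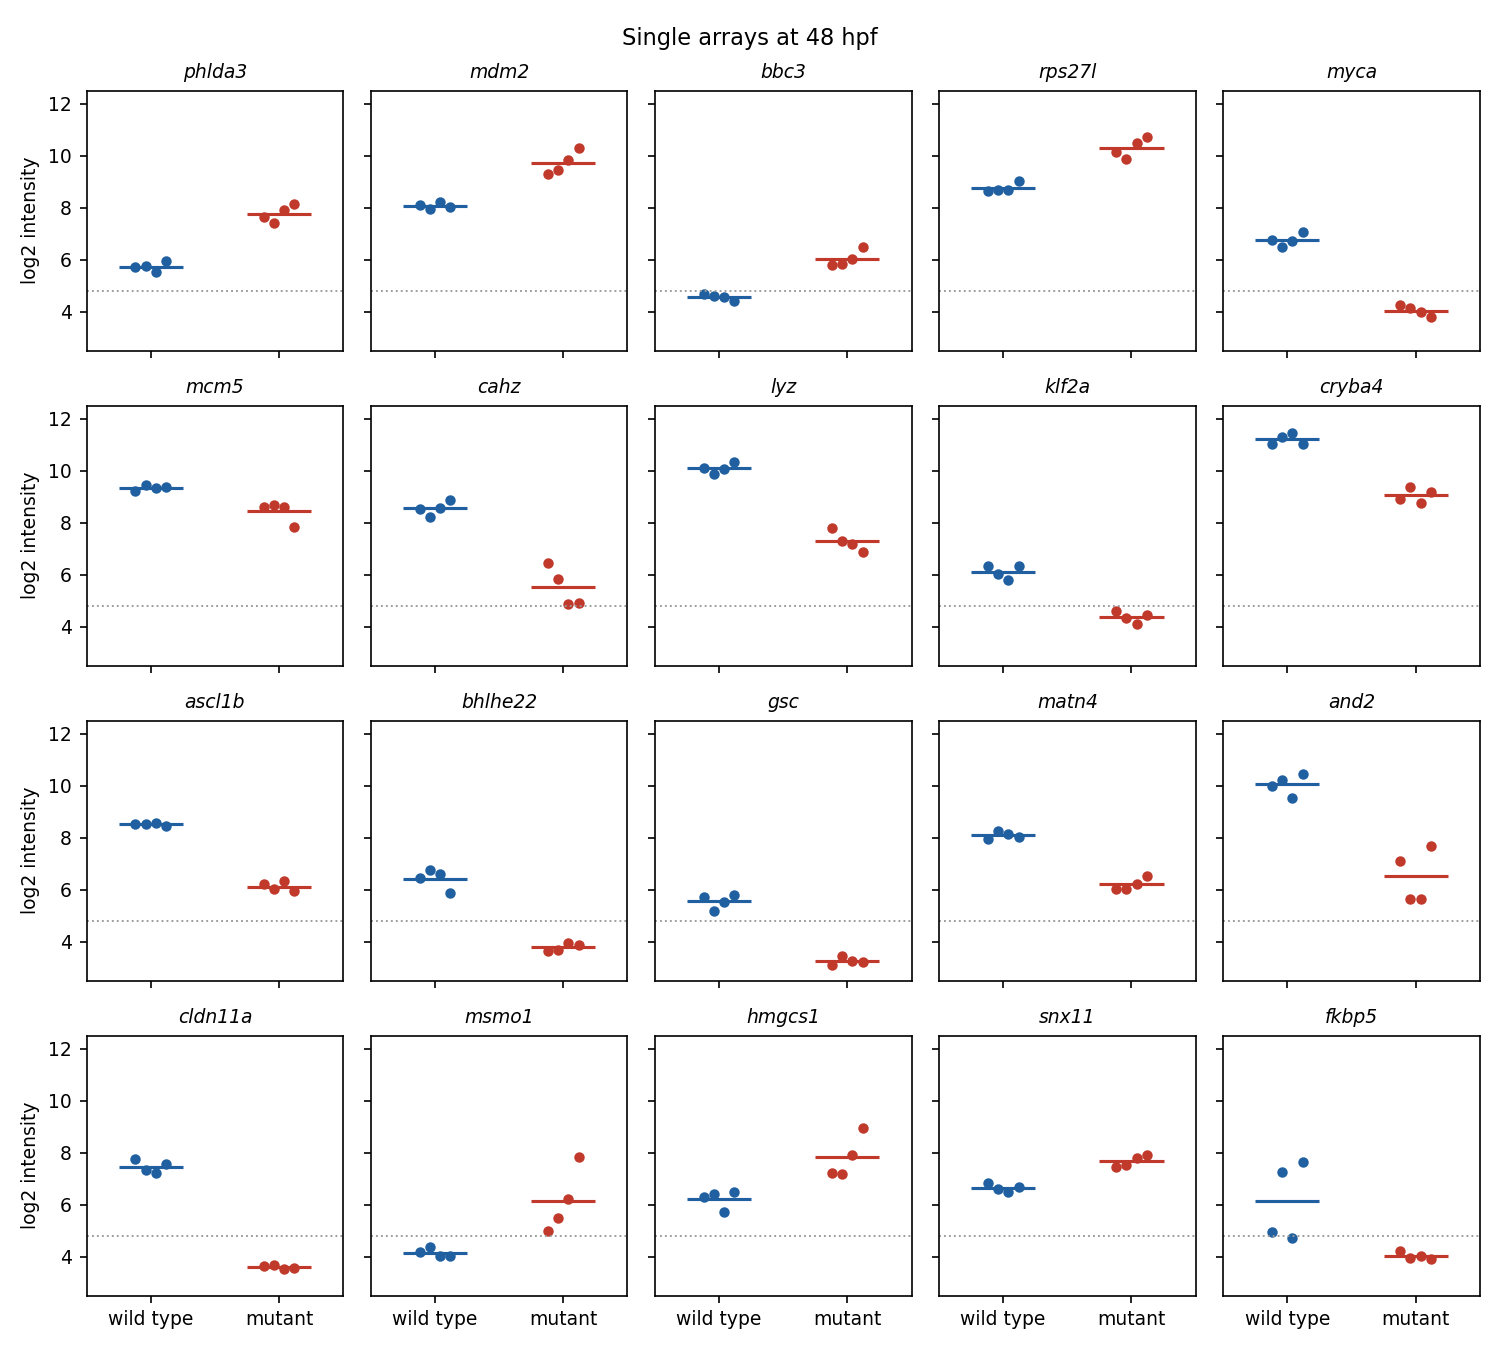
The panels show 20 genes, with the log2 intensity of each of the 4 wild-type arrays (blue) and 4 mutant arrays (red) at 48 hpf as a point, replicates 1 to 4 from left to right. Short lines are group means and the dotted line is the median of foreign sequences (4.79). In every panel all mutant arrays lie on the same side of all wild-type arrays, with the widest spread for fkbp5 in the wild types and msmo1 in the mutants. Most named genes were picked by the size or the adjusted p of their change, the largest changes only where arrays did not overlap. The separation shown therefore follows in part from this choice and is no separate test. Other named genes, such as mmp13a and atp1a1b, had overlapping groups.

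Neural progenitor genes formed one of the larger groups of decreases. Of 80 proneural and progenitor genes 28 fell (35%) and 2 rose, with a median of -0.28. The proneural factor ascl1b, which sets neural precursors on the path to neurons, read 8.51, 8.54, 8.57 and 8.44 in the wild-type arrays and 6.21, 6.01, 6.31 and 5.93 in the mutant arrays. Both groups were tight, and the fall of 2.4 ± 0.12 is 5.27-fold (adjusted p = 3.73e-10). Its paralog ascl1a fell by 1.91 ± 0.17. The neuronal factor bhlhe22 read 6.45, 6.75, 6.59 and 5.86 in the wild-type arrays and 3.65, 3.69, 3.95 and 3.88 in the mutant arrays, so that the mutants were at background, and fell by 2.62 ± 0.16 (adjusted p = 1.25e-08). The related neurod6b fell by 1.84 ± 0.12, sox11b, a factor of newborn neurons, by 1.29 ± 0.11, and the Notch target hey1 by 1.62 ± 0.15. The number higher was 0 without wild-type array 1, 2 or 4 or mutant array 2 or 3 and 1 without wild-type array 3 or mutant array 1 or 4.

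Of 88 genes of differentiated neurons, 9 fell and 4 rose, with a median of 0.00. The share lower was near that over all genes with a symbol, and the share higher was under its background. Those that rose were stmn4, pvalb7, gap43 (0.68) and dpysl5a, all named here after their values were seen. Those that fell included genes of particular neurons: the calcium-binding calb2a by 1.55 ± 0.16, the vesicular acetylcholine transporter slc18a3a by 1.08 ± 0.13, the motor neuron factor isl2a by 1.03 ± 0.13 and the G protein subunit gng13b by 1.08 ± 0.14. The axonal membrane protein gene islr2 fell by 2.29 ± 0.25 and the microtubule regulator stmn1b by 0.83 ± 0.10. Of 36 axon guidance genes 7 fell (19.4%) and 0 rose. The chemokine gene cxcl12a fell by 1.14 ± 0.15, and the semaphorins sema5a and sema3aa, which steer growth cones, by 0.80 ± 0.10 and 0.58 ± 0.14. The number of neuronal genes higher was 7 without mutant array 1, and an axon guidance gene was called higher without mutant array 1.

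Glial genes changed in both directions. Of 20 genes 6 fell and 2 rose. The connexin 43 gene gja1b, which also serves other tissues, read 8.18, 8.02, 7.98 and 8.28 in the wild-type arrays and 5.81, 5.52, 5.04 and 5.19 in the mutant arrays, and fell by 2.73 ± 0.15 (adjusted p = 3.35e-09). The radial glia gene fabp7a fell by 1.95 ± 0.21, the glutamine synthetase gene glulb by 1.3 ± 0.12 and apoea, the apolipoprotein of microglia and yolk layer, by 1.66 ± 0.25. The astroglial marker of mammals s100b read 3.54, 3.32, 3.45 and 3.88 in the wild-type arrays and 5.86, 5.49, 5.33 and 6.66 in the mutant arrays, from background in every wild type to above the background median in every mutant. In the ear and lateral line 7 of 29 genes fell and 2 rose. The hair cell gene pvalb8 fell by 1.40 ± 0.10, the hair cell factor atoh1a by 0.92 ± 0.17 and the chemokine receptor ackr3b, which guides the lateral line primordium, by 1.01 ± 0.13, while the otolith matrix gene oc90 rose by 0.79 ± 0.13. One of the 2 glial genes higher was not called in most fits that left out an array (1 without wild-type array 1, 2, 3 or 4 or mutant array 2 or 3).

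Neural crest and its derivatives in the head followed. The crest gives rise to pigment cells and to the cartilage of the jaw. Of 34 crest and pigment genes 11 fell (32.4%) and 4 rose. Those that rose were tspan36, rab32a, the crest gene crestin and pmelb, all but rab32a named here after their values were seen. The crest factors tfap2b, snai1a and snai2 fell by 1.08 ± 0.10, 1.00 ± 0.15 and 1.32 ± 0.13, and sox9b by 1.75 ± 0.19. Other probe sets, all below the background median, gave -0.55 (called) and -0.07 for snai2 and -0.09 for sox9b. The pigment genes moved apart, with the sugar transporter slc2a15b lower by -1.14 and the melanosome trafficking gene rab32a higher by 0.70. The number higher was 2 without wild-type array 1 or 3 or mutant array 1 or 3.

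In the pharyngeal arches, cartilage and bone 22 of 59 genes fell (37.3%) and 1 rose, with a median of -0.38. The homeobox gene gsc, active in the ventral and dorsal arches, read 5.73, 5.17, 5.51 and 5.78 in the wild-type arrays and 3.08, 3.46, 3.26 and 3.21 in the mutant arrays. The wild types lay above the background median and the mutants below it, and the fall of 2.29 ± 0.14 is 4.9-fold (adjusted p = 5.68e-09). The ligand edn1, which patterns the lower jaw, fell by 1.26 ± 0.15, the Bmp antagonist nog3 by 0.77 ± 0.10 and the retinoic acid-degrading enzyme gene cyp26b1 by 1.31 ± 0.15, with 2 of its 3 other probe sets also lower. The cartilage matrix gene matn4 read 7.95, 8.27, 8.16 and 8.03 in the wild-type arrays and 6.02, 6.04, 6.22 and 6.54 in the mutant arrays, and fell by 1.90 ± 0.24 (adjusted p = 4.73e-05). The number lower was 14 without probe sets of a mean under 5, and the 1 member higher was not called without wild-type array 1 or mutant array 4.

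Of 40 genes of the fin fold and paired fins 14 fell (35%) and 1 rose. The actinodins build the elastic rays of the larval fin fold. The actinodin gene and2 read 9.52 to 10.44 in the wild-type arrays and 5.64 to 7.68 in the mutant arrays, and fell by 3.53 ± 0.34 or 11.5-fold (adjusted p = 2.17e-06). Mutant arrays 2 and 3 were lowest, at 5.66 and 5.64, yet the highest mutant array was still 1.84 below the lowest wild type. The actinodins and3 and and1 fell by 2.82 ± 0.19 and 1.96 ± 0.33. The factors tbx15 and msx2b fell by 1.49 ± 0.18 (0.00 on a second probe set at background) and 0.86 ± 0.15, and evx1, expressed at fin ray joints, by 0.86 ± 0.15. Those higher numbered 0 without wild-type array 1, 2 or 3 or mutant array 3 and 3 without mutant array 1. Of 67 collagens and matrix genes 11 fell (16.4%) and 5 rose. The proteoglycan gene vcanb fell by 1.05 ± 0.12 and the thrombospondin gene thbs1b by 1.09 ± 0.18, while col14a1a and thbs3a rose by 0.89 ± 0.12 and 0.93 ± 0.15. The number of matrix genes higher was 9 without mutant array 1.

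Adhesion genes were called in both directions, 11 higher (15.3%) and 8 lower of 72 junction, cadherin and integrin genes. The mesenchymal cadherin cdh11 fell by 1.81 ± 0.16, with -1.16 on its second probe set, whereas cldn23.1, cldne and cdh17, all of epithelia, rose by 0.75 ± 0.14, 0.65 ± 0.12 and 0.80 ± 0.15. Those higher numbered 5 without wild-type array 3, 6 without wild-type array 2 and 7 without mutant array 3, and 7 rose and 8 fell after cyclic loess. The protocadherins, neural adhesion proteins whose clustered members depend on cohesin in mammals, were few on the array: 4 of 7 fell and 0 rose. They were pcdh10a (-1.45), pcdh19 (-1.12), pcdh18a (-0.83) and pcdh10b (-0.68), all non-clustered. Other probe sets read -0.59 and -0.09 for pcdh10a and 0.10 for pcdh18a.

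Skin genes were called in both directions in near-equal number, with 8 higher and 7 lower of 55. The gel-forming mucin gene muc5.1 and agr2, which folds mucins, fell by 1.40 ± 0.11 and 1.46 ± 0.14, and the keratin gene krt15 by 1.52 ± 0.16. The keratin gene krt1-19d rose by 1.28 ± 0.20, with 1.63 on its second probe set. The number of skin genes higher was 5 without wild-type array 1 or 2, and 7 rose and 8 fell after cyclic loess. Of 38 genes of ionocytes and ion transport 7 fell and 6 rose, and of those that fell aqp1a.1, aqp8a.1 and ca2 also belong to the erythroid list. The proton pump subunits atp6v1c1b and atp6v1ba rose by 0.62 ± 0.11 and 0.47 ± 0.10, and the sodium pump subunit atp1a1b fell by 0.69 ± 0.16.

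Skeletal muscle genes were mixed as well: 10 of 68 fell (14.7%) and 6 rose, with a median of -0.21. The calcium pump gene atp2a1l fell by 1.87 ± 0.32, the mitochondrial ADP/ATP carrier gene slc25a4 by 1.43 ± 0.24 and tmod4, which caps thin filaments, by 0.67 ± 0.11. The troponins tnnt2c and tnni2b.1 rose by 0.98 ± 0.12 and 1.16 ± 0.18, and the small heat shock gene hspb1 by 1.08 ± 0.14. The mutants also had the larger 3′ to 5′ difference of the muscle actin control given above, and its part in these changes was not tested.

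Of 47 tailbud, somite and notochord genes 9 fell (19.1%) and 6 rose. Among the 6, copb1 and copb2 also count in vesicle trafficking and cd63 in the lysosome list below. These were named here after their values were seen. Both ends of retinoic acid metabolism were among those that fell. The synthetic enzyme gene aldh1a2 fell by 1.13 ± 0.10 and the degrading enzyme gene cyp26a1 by 2.47 ± 0.40. The Bmp pseudoreceptor bambia fell by 1.23 ± 0.14 and wnt11 by 0.90 ± 0.13, while the ventral repressor vox rose by 1.14 ± 0.15. In the liver and yolk 8 of 67 genes fell (11.9%) and 5 rose (7.46%), with a median of -0.03. Both shares were near those over all genes with a symbol. Those that rose were ctsba, apoa4b.2, fetub, fah and ctsd, all but ctsba named here after their values were seen. The clotting factors f5 and f7 fell by 1.24 ± 0.17 and 0.88 ± 0.17, the tyrosine catabolism enzyme gene hgd by 1.02 ± 0.12 and vitronectin (vtnb) by 0.93 ± 0.14. The number of liver and yolk genes higher was 1 without wild-type array 2, 2 without wild-type array 3, 3 without mutant array 1, 2 or 3 and 9 without wild-type array 4. Of 64 genes of pancreas, gut and kidney 11 fell (17.2%) and 4 rose. The insulin gene ins fell by 0.69 ± 0.11, the endocrine and neural factor neurod1 is given above, the lymphatic and pancreatic factor prox1a fell by 0.87 ± 0.12 and the kidney field factor lhx1a by 1.13 ± 0.19. With probe sets of a mean under 5 left out, 6 of that list were lower and 2 higher.

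Signalling genes were called lower more often than higher. Of 54 genes of Bmp and Tgf beta signalling 15 fell (27.8%) and 2 rose. The list as a whole hardly shifted, with a median of -0.01 against 0.03 over all genes with a symbol. The modulator bmper fell by 2.00 ± 0.20, the ligand bmp3 by 1.29 ± 0.15, the target id4 by 1.26 ± 0.11 and the antagonist follistatin (fsta) by 0.86 ± 0.14. Of 60 genes on a list of Fgf, other receptor kinases and Igf-binding proteins 11 fell (18.3%) and 2 rose, with a median of -0.09. Among them fgfr4 was lower by -0.47, fgfrl1a by -0.63, the growth factor igf2b by -0.75 and the binding protein igfbp1a by -1.90. The 2 higher were spryd7b and igfbp1b, both named here after their values were seen. Neither encodes an Fgf or a receptor kinase. Of 48 genes on the Hedgehog and Notch list 9 fell (18.8%) and 1 rose, with the Hedgehog-binding hhip lower by -0.88 and the Notch target her4.2 by -0.69. Counted among the 9 is mibp, which encodes an integrin-binding protein of muscle and is not part of either pathway. Of 46 Wnt genes 7 fell and 4 rose, with the inhibitor wif1 lower by -1.33, the receptor fzd8a by -1.02 and the agonist rspo1 higher by 0.80. The number lower was 4 without wild-type array 1 and 5 without wild-type array 2 for Hedgehog and Notch and 4 without wild-type array 4 or mutant array 3 for Wnt, and the number of Wnt genes higher was 2 without wild-type array 3 or 4. The few members higher were 0 without mutant array 3 and 1 without wild-type array 3 for Fgf, 1 without wild-type array 2 or 4 or mutant array 1 or 2 for Bmp and 0 without wild-type array 1, 2 or 4 or mutant array 2, 3 or 4 for Hedgehog and Notch.

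Transcription factors of development made up the largest list of decreases. Of 208 homeobox and other developmental factors 52 fell (25%) and 6 rose, with a median of -0.20. Beyond those named above, the arch factor pax9 fell by 1.59 ± 0.15, the neural factor pou3f1 by 1.56 ± 0.14 and the limb and brain factor lhx9 by 1.67 ± 0.15. The hypothalamic factor otpb, among the 30 largest decreases, read 7.07, 6.78, 7.37 and 5.85 in the wild-type arrays and 4.73, 4.72, 4.70 and 4.71 in the mutant arrays, with every mutant array between 4.70 and 4.73. Of 42 Hox genes measured, 3 rose and 1 fell, both shares under the background, with a median of -0.01. The number of Hox genes higher was 5 without mutant array 4, and the number lower 0 without wild-type array 1 or mutant array 4, 2 without mutant array 2 or 3 and 3 without mutant array 1.

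Genes of sterol synthesis rose. Of 23 genes for making cholesterol and lipids 11 rose (47.8%) and 1 fell, with a median of 0.42. The demethylase gene msmo1 read 4.17, 4.37, 4.04 and 4.01 in the wild-type arrays and 4.99, 5.50, 6.21 and 7.82 in the mutant arrays. The mutant arrays were spread over 2.83 units and mutant array 4 was the highest, yet all lay above the wild types, and the change of 1.98 ± 0.38 is 3.96-fold (adjusted p = 0.00179). The first committed step, hmgcs1, read 6.30, 6.42, 5.70 and 6.50 in the wild-type arrays and 7.21, 7.20, 7.89 and 8.96 in the mutant arrays, and rose by 1.58 ± 0.29 (adjusted p = 0.00128). The thiolase acat2 rose by 0.61 ± 0.10 and mevalonate kinase (mvk) by 0.55 ± 0.11. One probe set of cyp51 rose by 1.40 ± 0.16, and its other 3, at or near background, changed by -0.31, -0.03 and -0.10. The 1 member that fell was lbr, the lamin B receptor with sterol reductase activity, by 0.80 ± 0.12. The number lower was 2 without mutant array 4.

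Vesicle trafficking, a long list, held many increases. The genes of this list sort membrane cargo between Golgi, endosome and lysosome. Of 183 genes 45 rose (24.6%) and 1 fell, with a median of 0.23. The sorting nexin gene snx11 read 6.83, 6.61, 6.50 and 6.68 in the wild-type arrays and 7.46, 7.51, 7.79 and 7.93 in the mutant arrays, and rose by 1.02 ± 0.12 (adjusted p = 2.16e-05). The retromer-associated snx2 rose by 0.68 ± 0.09, vps41, which tethers vesicles to the lysosome, by 0.92 ± 0.14, and the adaptor subunits ap1s1 and ap3b1a by 0.82 ± 0.14 and 0.82 ± 0.14. With single arrays left out, between 32 and 40 genes were called higher, and 36 were higher after cyclic loess. The number of trafficking genes lower was 0 without wild-type array 1 or 2 or mutant array 2 or 3, 2 without mutant array 4 and 3 without wild-type array 3. Of 150 genes of the proteasome and ubiquitin 21 rose (14%) and 6 fell. Polyubiquitin (ubb) rose by 0.70 ± 0.09, uba7, which in mammals activates the ubiquitin-like Isg15, by 0.78 ± 0.10, and the conjugating enzyme ube2d2 by 1.13 ± 0.16, while the cell cycle ligase subunit skp2 fell by 0.82 ± 0.17. The number of these higher was 13 without wild-type array 1. Of 125 genes of cytoskeleton and motors 22 rose (17.6%) and 8 fell, with the annexins anxa13 and anxa5b higher by 1.09 and 0.81, the Arp2/3 subunit arpc5a by 0.95 and the dynein light chain dynlt2b by 0.75. A further probe set of anxa5b at background changed by 0.04, and the number of cytoskeletal genes lower was 4 without wild-type array 1.

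Immune genes were called mainly upward. Of 40 innate immune and inflammation genes 11 rose (27.5%) and 3 fell. The interferon-induced GTPase gene gbp1 rose by 1.21 ± 0.16, irf9, a part of the interferon response complex, by 0.78 ± 0.17, and the chemokine gene ccl19a.1 by 0.68 ± 0.14. The ubiquitin-like isg15 read 3.65, 3.63, 3.81 and 3.70 in the wild-type arrays and 3.85, 4.01, 6.56 and 7.24 in the mutant arrays, a change of 1.72 ± 0.53 (adjusted p = 0.0344) in which mutant arrays 3 and 4 stood above the others. It was not called without mutant array 3 or 4 or without any single wild-type array (highest adjusted p 0.12). The prostaglandin synthase gene ptgs2a fell by 0.85 ± 0.17 and the NF-kappaB inhibitor nfkbiab by 0.62 ± 0.14. Those higher numbered 5 without wild-type array 3, 6 without wild-type array 2 or mutant array 3 or 4 and 7 without wild-type array 1, and 4 without probe sets of a mean under 5.

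The amino acid stress program driven by Atf4 in mammals was lower. Of 49 genes 17 fell (34.7%) and 4 rose, with a median of -0.34. The serine synthesis gene phgdh fell by 0.87 ± 0.14, the mitochondrial folate enzyme gene mthfd2 by 1.22 ± 0.21, the glutathione-degrading chac1 by 1.49 ± 0.22, cebpd by 1.81 ± 0.18 and the amino acid transporter slc38a4 by 0.63 ± 0.10, while the proline synthesis gene aldh18a1 rose by 1.00 ± 0.16. Second probe sets of chac1 (0.03) and cebpd (-0.04) read at background. Chaperones were rarely called, 7 higher (6.86%) and 4 lower of 102. Large and variable differences stood among them. The inducible hsp70.3 fell by 2.00 ± 0.43, and the immunophilin of steroid receptors fkbp5 read 4.95, 7.25, 4.70 and 7.63 in the wild-type arrays and 4.22, 3.94, 4.03 and 3.92 in the mutant arrays, so that wild-type arrays 1 and 3 lay within 1 unit of the mutants (change -2.11 ± 0.46, adjusted p = 0.00468). The number of chaperones lower was 2 without wild-type array 2.

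Of 67 genes on a list of glycolysis, the citric acid cycle and the pentose phosphate pathway 11 rose (16.4%) and 3 fell. The median of 0.03 turned negative under cyclic loess and under centring. Of those that rose, taldo1, tktb, pgd and pgls act in the pentose phosphate pathway, all but tktb named here after their values were seen. The list also counts idh1, whose cytosolic enzyme lies outside the citric acid cycle. The cytosolic isocitrate dehydrogenase idh1 rose by 0.78 ± 0.13, transketolase (tktb) by 0.50 ± 0.09 and pgam1b by 0.59 ± 0.12, while the muscle phosphofructokinase pfkma fell by 1.01 ± 0.15 and mdh1ab by 1.07 ± 0.15. The number higher was 6 without wild-type array 2 or 3 or mutant array 3 or 4 and 7 without wild-type array 1, and 6 after cyclic loess. The respiratory chain had 3 higher and 3 lower of 95, under the background in both directions. The alternative cytochrome oxidase subunits cox4i2 and cox4i1l nevertheless rose by 1.11 ± 0.13 and fell by 1.40 ± 0.19. The number of respiratory genes higher was 1 without wild-type array 1, 2 or 3 or mutant array 1 and the number lower 1 without wild-type array 1 or 4 or mutant array 2 or 3. Of 31 genes of the hypoxia and glucose response 7 fell and 4 rose, with epas1a, a hypoxia-inducible factor, lower by -0.63 (-0.91 and -0.29 on its other probe sets), and hexokinase hk2 higher by 0.42. The number of these higher was 1 without wild-type array 2 and 2 without wild-type array 1 or 3 or mutant array 3.

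Detoxification and transport were near balance. Of 105 genes of cytochrome P450 and conjugation 16 rose (15.2%) and 10 fell, and 12 rose and 13 fell after cyclic loess. The aldehyde dehydrogenase gene aldh3b1 rose by 1.04 ± 0.14 and the sulfotransferase gene sult1st4 fell by 0.83 ± 0.13. Of 137 solute carriers 16 rose and 14 fell, and 12 rose and 16 fell after cyclic loess. The monocarboxylate transporter slc16a9b rose by 1.46 ± 0.15 and the nucleotide sugar transporter relative slc35f6 by 0.92 ± 0.12. The number of solute carriers lower was 9 without wild-type array 4 or mutant array 3. In the circadian clock 3 of 22 genes rose and 2 fell. The light-induced clock genes cry1a and per2 rose by 0.81 ± 0.11 and 0.80 ± 0.14, with 0.21 for a second probe set of per2, and nfil3-5, a repressor of the same network, fell by 0.78 ± 0.18.

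The remaining lists had few called members. Of 126 spliceosome and hnRNP genes 11 fell and 3 rose, with hnrnpul1 lower by -0.49 and rbm25a higher by 0.73. Of 103 genes on a broad cilia list 8 rose and 3 fell, with the radial spoke gene rsph1 higher by 0.83. Its increases include arl6ip5a, ccdc120b and ccdc22, whose part in cilia was not checked. Of 58 genes on a list of nuclear receptors and thyroid and retinoic acid genes 3 rose and 5 fell. The oxysterol receptor nr1h3 was higher by 0.48 and nr4a1 lower by -1.09. The 3 higher include esrp2, a splicing regulator, named here after its values were seen. Of 58 proteins of the mitochondrial ribosome 4 were lower and 0 higher. Of 22 hormones and neuropeptides 3 fell (13.6%) and 0 rose, and those that fell were adcyap1b (-1.07), penkb (-0.55) and star (-0.98), the cholesterol carrier of steroid synthesis. The numbers lower were 6 without wild-type array 2 or mutant array 4 and 7 without wild-type array 1 for splicing, 0 without wild-type array 1 or mutant array 2, 1 without wild-type array 2 or 4 or mutant array 3 or 4 and 5 without mutant array 1 for cilia, 2 without wild-type array 1 or mutant array 2 and 3 without wild-type array 2 or 3 or mutant array 3 or 4 for nuclear receptors and 0 without wild-type array 4, 1 without wild-type array 3 or mutant array 2 or 4 and 2 without wild-type array 1 or 2 or mutant array 3 for the mitochondrial ribosome. The numbers higher were 1 without mutant array 2 for hormones, 5 without mutant array 4 for splicing, 5 without wild-type array 1 for cilia and 1 without wild-type array 3 for nuclear receptors.

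How far a difference had already been present at 24 hpf was tested as the difference between the genotype effects of the 2 stages (the interaction), which compares separate arrays. It was called for 225 probe sets, 1.45% of those tested, and for 159 genes with a symbol (1.81%). In 189 of the 225 probe sets the effect was larger in size at 48 hpf, and in 36 it was smaller or equal. Among the 30 largest decreases, the difference was called for 12, and among the 30 largest increases for 11. Both sets were picked by the size of their change at 48 hpf, which favours a larger effect at that stage. Their shares are therefore not comparable with the 1.45% over all probe sets. The other named genes were also picked on 48 hpf results, and in all 71 named genes with the call the effect was larger at 48 hpf.

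Genes whose mutant deficit was larger at 48 hpf included several that were at background in wild types at 24 hpf. In 9 of the 30 largest decreases the wild-type mean at 24 hpf lay below the foreign median. The wild-type mean of cldn11a was 3.83 at 24 hpf and 7.46 at 48 hpf, while the mutants stood at 3.60 at the later stage, a difference between genotype effects of -3.67 (adjusted p = 2.06e-10). The same course held for gsc, from 3.32 to 5.55 in wild types (-2.38, adjusted p = 1.98e-06), for and3, from 4.2 to 8.87 (-2.62, adjusted p = 5.44e-05), and for and2, from 4.63 to 10.04 (-3.18, adjusted p = 0.00264). Also in this class were the lens crystallin crygmxl2 (-1.66), the calcium buffer pvalb5 (-1.78), the chemokine ccl25b (-2.08) and calb2a (-1.55). For such genes a difference at 24 hpf could hardly have been measured.

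In the blood and vessel lists the interaction was called for 3 of 32 erythroid, 5 of 31 myeloid and 1 of 23 endothelial genes. The effect on lyz was -1.29 ± 0.23 at 24 hpf and -2.80 ± 0.23 at 48 hpf (interaction adjusted p = 0.0303), on cahz -1.41 ± 0.26 and -3.05 ± 0.26 (adjusted p = 0.0363), and on plvapb -0.31 ± 0.17 and -1.83 ± 0.17 (adjusted p = 0.00432). For mpx the effect was 0.07 ± 0.14 at 24 hpf and -0.91 ± 0.14 at 48 hpf (adjusted p = 0.0214), and for apoea 0.26 ± 0.25 and -1.66 ± 0.25 (adjusted p = 0.0103). By contrast, myca (-2.27 at 24 hpf), ascl1a (-1.79), inka1a (-3.20) and gja1b (-3.56) had a deficit of -2.71, -1.91, -2.91 and -2.73 at 48 hpf, and their interaction was not called, with adjusted p from 0.075 (gja1b) to 0.903 (ascl1a).

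Among the p53 genes the interaction was called for 4 of 33, and among the sterol genes for 2 of 23. For mdm2 the genotype effect was 0.01 ± 0.16 at 24 hpf and 1.66 ± 0.16 at 48 hpf (interaction adjusted p = 0.00106), for phlda3 0.47 ± 0.16 and 2.04 ± 0.16 (adjusted p = 0.00185), for bbc3 0.60 ± 0.14 and 1.48 ± 0.14 (adjusted p = 0.0347) and for baxa -0.13 ± 0.16 and 0.90 ± 0.16 (adjusted p = 0.03). For rps27l, which had risen by 0.86 at 24 hpf, the difference was not called (adjusted p = 0.297). The sterol gene hmgcs1 went from -0.16 ± 0.29 to 1.58 ± 0.29 (adjusted p = 0.045), while msmo1, with its spread-out mutant arrays, missed the threshold at 1.97 (adjusted p = 0.0863). The complement gene cfd (1.43), the interferon-induced gbp1 (1.25) and the clock genes cry1a (0.84) and per2 (0.89) also rose more at 48 hpf.

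**Figure D4:**
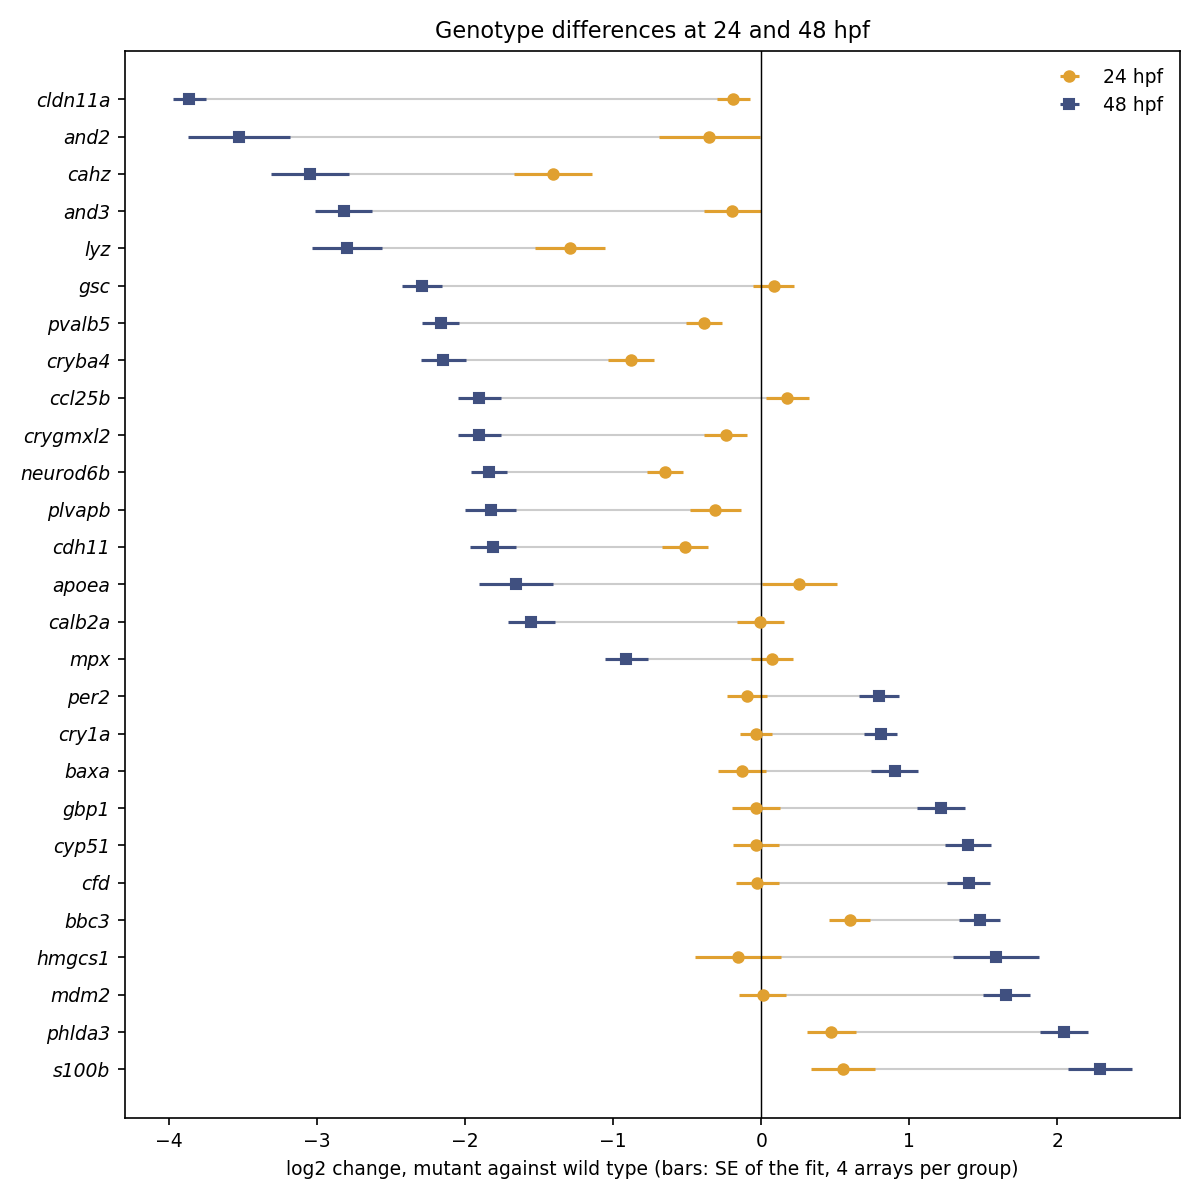
For 27 genes the log2 change between mutants and wild types is shown at 24 hpf (circles) and 48 hpf (squares), each with the standard error of the fit (4 arrays per group). The difference between the stages was called for all 27 genes, which were picked among those with this call, so the count is no separate result. Decreases such as cldn11a and gsc and increases such as mdm2 and baxa lie near 0 at 24 hpf. At that stage cldn11a and gsc were at background in the wild types.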

How the data were processed

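The deposited values are the authors' normalized intensity per probe set, not log-transformed, and the submitters' processing notes name GCOS, RMA and affy, with versions, background correction and filters not given in the sources used here. There were 0 missing values, and array medians lay between 45.5 and 48.1. Of 15617 probe sets 115 manufacturer controls were dropped. Log2 was taken without a pseudocount or filter. Symbols came from the platform annotation (10795 probe sets with 1 symbol, 135 with several and 4572 with none) and were updated through RefSeq assembly GRCz12tu, in which 10711 were found and 1 changed. Of 8793 genes, 1539 had more than 1 probe set, and each took the probe set with the highest mean.

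limma 3.58.1 in R 4.3.3 fitted 4 group means to 16 arrays, leaving 12 residual degrees of freedom, to which eBayes added 4.97. Tests were two-sided. The fit was tested on simulated data. Named genes are rad21a and the measured cohesin subunits, the 30 largest increases and 30 largest decreases without overlap between arrays, and, from each list, the 6 or fewer members whose adjusted p was smallest. The comparison and gene lists were chosen with earlier results of these data known. Alternatives were other scalings, a pseudocount of 16, a filter on probe sets with a mean log2 under 5, gene means over probe sets, a replicate block, the 48 hpf arrays alone, eBayes with trend and robust, and leaving out arrays.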

Additional observations from a re-analysis of the deposited data

Results flagged for a closer look

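Among 246 of the genes named in the text, 27 of 492 groups of 4 arrays had a highest or lowest array that stood further from its nearest neighbour, relative to the group's range, than Dixon's critical value for 4 values. Chance flags about 1 in 20 groups. Wild-type array 2 was the highest of its group, in log2 intensity, for pold2 (7.52) and ube2d2 (6.55). Wild-type array 3 was the lowest of its group, in log2 intensity, for aars1 (10.32), ca2 (9.05), nfil3-5 (8.31), sema5a (3.97), smc1al (8.61) and tktb (10.90). Wild-type array 4 was the lowest of its group, in log2 intensity, for ascl1a (7.81), plk4 (6.87) and s1pr1 (8.35). Wild-type array 4 was the highest of its group, in log2 intensity, for anxa13 (6.85), cyp26a1 (9.82), rps27l (9.03), slc2a15b (8.05) and snx2 (6.1). Mutant array 1 was the lowest of its group, in log2 intensity, for tfap2b (5.37). Mutant array 2 was the highest of its group, in log2 intensity, for inka1a (4.88). Mutant array 3 was the lowest of its group, in log2 intensity, for ccl19a.1 (5.28). Mutant array 3 was the highest of its group, in log2 intensity, for barhl2 (4.62) and gbp1 (7.55). Mutant array 4 was the lowest of its group, in log2 intensity, for mcm5 (7.81) and oc90 (6.37). Mutant array 4 was the highest of its group, in log2 intensity, for bmp3 (5.48), hist2h2l (10.83), irf9 (5.30) and mmp13a (6.75).

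The genotype effect differed between the stages (limma interaction, adjusted p under 0.05) for the following genes, with the log2 change at 48 hpf minus that at 24 hpf in brackets. For genes of eye and lens the difference was called for cryba4 (-1.27), crygmxl2 (-1.66), bfsp2 (-1.38), vsx1 (-0.69), exorh (-0.91) and rlbp1a (1.11). For neural, ear and glial genes the difference was called for ascl1b (-0.84), neurod6b (-1.19), calb2a (-1.55), stmn1b (-0.73), sema5a (-0.72), pvalb8 (-0.66), s100b (1.74), lhx9 (-1.29) and pou3f1 (-1.07). For blood and vessel genes the difference was called for lyz (-1.51), mpx (-0.98), cpa5 (-1.37), ctsc (1.07), cahz (-1.64), epb41b (-1.23), cxcr4b (-1.09), plvapb (-1.52) and apoea (-1.92). For crest, arch, fin and adhesion genes the difference was called for gsc (-2.38), tfap2b (-0.77), and2 (-3.18), and3 (-2.62), cdh11 (-1.3), cldn11a (-3.67), col14a1a (0.75), id4 (-0.81), vox (1.1) and rab32a (0.75). For muscle and skin genes the difference was called for atp2a1l (-1.87), tmod4 (-1.14), tnni2b.1 (1.16), tnnt2c (1.15), pvalb5 (-1.78), krt1-19d (1.22), krt15 (-1.22), muc5.1 (-1.22) and atp6v1c1b (0.68). For genes of p53, immunity, the lysosome and sterols the difference was called for phlda3 (1.57), mdm2 (1.65), bbc3 (0.88), baxa (1.03), gbp1 (1.25), uba7 (0.73), scpep1 (1.17), cfd (1.43), ccl25b (-2.08), cyp51 (1.43), hmgcs1 (1.74) and star (-0.97). For genes of metabolism, liver, trafficking and the clock the difference was called for pfkma (-1.06), phgdh (-0.93), cox4i1l (-1.74), epas1a (-0.73), slc35f6 (0.92), f5 (-1.09), hgd (-1.02), vtnb (-1.14), snx2 (0.74), snx11 (0.78), cry1a (0.84) and per2 (0.89). It was also called for the largest decrease among probe sets without a symbol (-5.02). Genes whose effects had opposite signs included tmod4, with 0.47 at 24 hpf and -0.67 at 48 hpf. The effects on apoea, mpx, baxa and hmgcs1, given in the report, also differed in sign, with smaller changes at 24 hpf.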

How the results depend on the processing

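Every count of called probe sets stayed within 1.5 times its value in the report under each alternative run. Across scalings, the pseudocount, the filter on the mean over the arrays, the 48 hpf arrays alone and eBayes with trend and robust, between 980 and 1317 probe sets were higher and between 859 and 1282 lower. Leaving out single arrays gave 1018 to 1254 higher and 817 to 1081 lower, and leaving out wild-type array 3 and mutant array 4 together gave 1074 and 1029. Interaction calls numbered 227 after cyclic loess and 236 with the pseudocount.

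Replicate numbers are shared between groups, and the labels do not say whether a number marks a shared batch. Same-numbered arrays did not visibly deviate together from their group means (correlations -0.155, 0.031, -0.008 and 0.046). So few correlations cannot exclude a pairing of the pools. With a replicate block 1388 were higher, 1091 lower and 200 called for the interaction.

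Of 316 named genes that were called, 275 stayed called under every alternative in which they were tested (229 under all 18, and 46 under 17, because the filter on a mean under 5 removed them) and 41 lost the call under at least 1, and of 25 not called, 15 were called under at least 1. No called gene changed sign. The cause of each lost call was not tested. Signal over background limits what the arrays show: for probe sets near or under the median of the foreign sequences, changes are compressed.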

Other observations

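Lysosomal genes that were called at 48 hpf were all higher in the mutants. The list was put together after the values had been seen, so its counts are a description with no test. Of 45 measured genes for lysosomal enzymes, membrane proteins and their regulators, 22 rose and 0 fell, with a median change of 0.40, against 9.66% of all genes with a symbol that rose. The cathepsin genes ctsll (1.49 ± 0.25), ctsc (1.05 ± 0.15), ctsa (1.04 ± 0.17), ctsz (0.87 ± 0.21), ctsba (0.81 ± 0.16) and ctsd (0.40 ± 0.11), which encode proteases or a protective protein of the lysosome, were among them. So were the serine carboxypeptidase gene scpep1 (1.27 ± 0.18), the asparaginyl endopeptidase gene lgmn (0.88 ± 0.19), the glycosylasparaginase gene aga (0.89 ± 0.16), the galactosylceramidase gene galcb (0.68 ± 0.11) and the palmitoyl thioesterase gene ppt1 (0.83 ± 0.12). The membrane proteins scarb2a (1.01 ± 0.23) and lamp1a (0.75 ± 0.18) rose, as did tfe3a (0.89 ± 0.16), which belongs to the family of factors that in mammals control lysosomal genes. The list overlaps with vesicle trafficking in function, and npc1 (-0.49 ± 0.20, adjusted p = 0.118) and pla2g15 (-0.52 ± 0.19, adjusted p = 0.0829) were the members with the lowest changes.

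Genes known to respond to glucocorticoids, again listed after their values were seen and not tested as a list, were lower where they were called. Of 18 measured genes 8 fell and 0 rose, with a median of -0.20, against 8.18% of all genes with a symbol that fell. Members not called went both ways. Higher in the mutants were socs3a (1.23 ± 0.69), zbtb16a (0.64 ± 0.23), pck1 (0.47 ± 0.20) and gadd45bb (0.38 ± 0.13). Lower were sgk1 (-0.22 ± 0.23), pfkfb4b (-0.19 ± 0.15) and ddit4 (-0.15 ± 0.17). The immunophilin gene fkbp5 fell (-2.11 ± 0.46), with the widely spread wild-type arrays given in the report. So did klf9 (-1.18 ± 0.38), dusp1 (-0.81 ± 0.20), cebpd (-1.81 ± 0.18) and igfbp1a (-1.90 ± 0.39). The gene hsd11b2 (-0.70 ± 0.16), whose product inactivates cortisol, fell from a mean of 4.88 to 4.17, close to background. For tat (-0.49 ± 0.10) the wild-type mean of 3.59 was under the median of the foreign sequences (4.79). The receptor gene nr3c1 differed by 0.17 ± 0.22 (adjusted p = 0.69), and tsc22d3 by -0.02 ± 0.13 (adjusted p = 0.956). The steroid synthesis gene star, given in the report, also fell, and the filter on a mean log2 under 5 removed its probe set. A link between star and the genes of this list was not tested.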
